A study of Mus musculus with 8 samples.

Results

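Expression of the nuclear-encoded genes of oxidative phosphorylation was examined in mouse occipital cortex after a fast. The members were the genes whose symbols begin with Nduf, Uqcr, Cox4 to Cox8 or Atp5, together with Sdha to Sdhd, Cyc1 and Cycs. This choice gave 94 of the 24344 distinct gene symbols in the expression table. They comprised 7 core and 29 accessory subunits of complex I, 7 Ndufaf assembly factors of complex I, 4 subunits of complex II, 9 of complex III, cytochrome c, 20 of complex IV and 15 of complex V, with Atp5s and Atp5sl kept apart. The 8 RNA-seq libraries came from total RNA of occipital cortex homogenates of C57BL/6J mice at postnatal day 35. In 4 of them the mice had been fasted for 48 h, and in the other 4 they had been fed ad libitum; strain, age and tissue were the same in both groups. The labels do not say whether each replicate was a separate mouse, so the p-values measure the spread between these samples.

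Oxidative phosphorylation couples the transfer of electrons along the inner mitochondrial membrane to the synthesis of ATP. Complexes I and II pass electrons from NADH and succinate to ubiquinone, complex III passes them on to cytochrome c, and complex IV reduces oxygen. Complexes I, III and IV pump protons, and complex V, the ATP synthase, uses the gradient to make ATP. Complexes I, III, IV and V also hold subunits encoded by mitochondrial DNA, and assembly factors, which are not part of the finished enzymes, help to put each of them together. Neurons depend strongly on this pathway. The table held 0 mitochondrially encoded genes, so the mitochondrial subunits were not analysed here.

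Expression was given as FPKM, sequenced fragments scaled to the length of the transcript and the size of the library. An estimated depth of 17300000 to 21400000 fragments per library means that 1 FPKM on 1 kb of transcript stood for 17.3 to 21.4 fragments, with the estimate itself uncertain. Totals of FPKM were 255459 to 281890 in the fasted libraries and 253470 to 360010 in the ad libitum libraries. Ad libitum replicate 3 had intermediate levels of both the X-inactivation transcript Xist (32.2 FPKM) and the Y-linked Ddx3y (5.67 FPKM). Each of the other 7 libraries was above 10 FPKM for 1 of these genes and below 0.1 FPKM for the other. The high gene was Ddx3y in fasted replicates 1 and 3 and ad libitum replicate 1. It was Xist in replicates 2 and 4 of both groups. The groups, and the libraries numbered 3, were thus not matched for these genes. Ad libitum replicate 4 held the lowest value of its group for 83 of the 88 members tested, and fasted replicate 4 for 62 of 88.

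In the fit with group as the only term, few members differed between fasted and ad libitum cortex. Genes with at least 1 FPKM in at least 4 libraries were tested with limma on log2(FPKM + 1), with p-values adjusted by the Benjamini-Hochberg method over all 12377 genes tested; a gene was called at an adjusted p under 0.05. Of the members, 88 passed this filter and 6 isoforms of complex IV subunits did not. In fasted cortex 8 of 88 members were lower, or 9.09%, against 16.3% of all genes tested. The test called 0 members higher, against 9.56% of all genes tested. At an unadjusted p under 0.05, limma put 13 members lower and 1 higher. No share over all genes is given at that threshold. In this fit, with group as the only term, the share of members called was below the background in either direction; fits with a block or with fewer libraries, given next, differ in this. The median log2 change of the members was -0.08, against -0.02 over all genes tested, and 66 members had a negative change and 22 a positive one. Over all 12377 genes tested, 6844 changes were negative and 5533 positive. In bulk tissue, fewer cells of a type and less RNA per cell cannot be told apart.

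**Figure D1:**
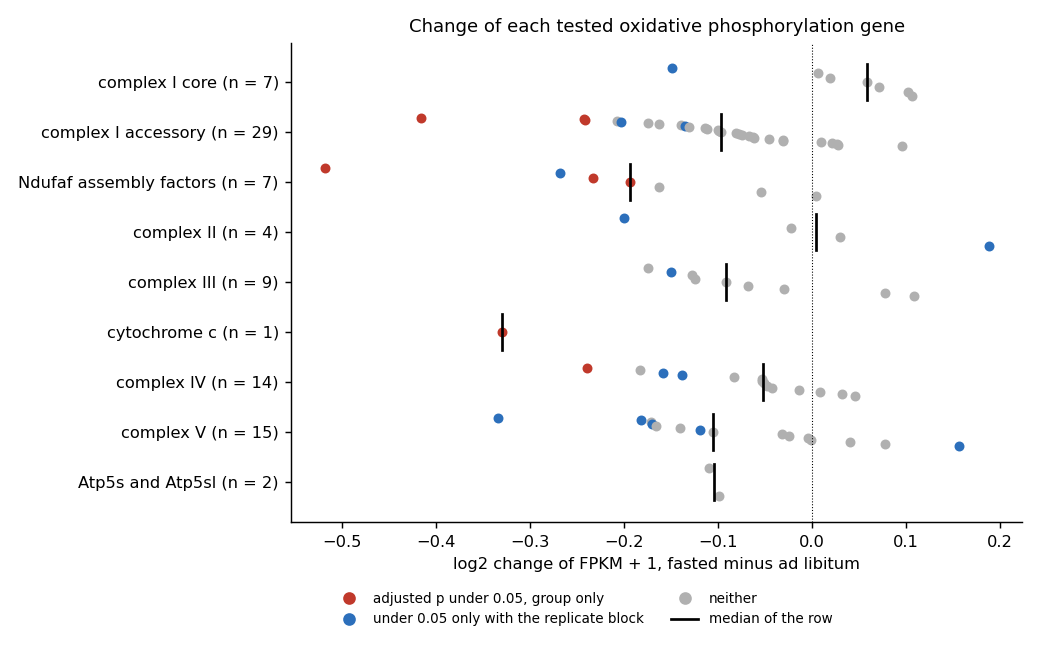
Log2 change of FPKM + 1 (x axis, fasted minus ad libitum) of each of the 88 members tested, 1 point per gene, in rows by complex; black bars are the row medians and colours show the adjusted p without and with the replicate block. The 8 members called without the block all lie to the left of 0, and the row medians run from -0.33 for cytochrome c to 0.06 for the core subunits of complex I.

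The count rested on how libraries were matched. Libraries with the same replicate number deviated together, and once limma was given that number as a block, 20 members were lower (22.7%, against 22.1% of all genes tested) and 2 were higher (2.27%, against 14.3%). The 20 held all 8 of the fit without the block. Adding offsets for GC content and transcript length to the block gave 15 lower members (17.0%, against 20.0% of all genes tested) and 12 higher ones (13.6%, against 20.2%). In 7 members, or 7.95%, every fasted library was below every ad libitum library, against 16.5% of all genes tested. There were 0 members with every fasted library above every ad libitum library, against 11.1% of all genes tested.

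Single libraries moved the count as much. Without ad libitum replicate 4, 27 members were lower (30.7%, against 20.5% of all genes tested), so that here the members' share was above the background. With both libraries numbered 4 left out, a choice made after the data were seen, 19 were lower (21.6%, against 18.5%) and 0 higher. Without any other library the share was below the background. It was 9.09% without fasted replicate 1 (8 members, against 14.8% of all genes tested), 4.55% without fasted replicate 2 (4 members, against 12.9%) and 5.68% without fasted replicate 3 (5 members, against 13.0%). It was 4.55% without fasted replicate 4 (4 members, against 13.1%), and likewise 4.55% without ad libitum replicate 1 (4 members, against 12.8%) or 2 (4 members, against 11.3%). Without ad libitum replicate 3 it was 3.41% (3 members, against 11.1%). The median deviation of the 88 members from their means over 8 libraries was 0.06, -0.03, -0.04 and -0.13 on the log2 scale in fasted replicates 1 to 4, against 0.16, 0.14, 0.03 and -0.18 in ad libitum replicates 1 to 4. Replicate 4 was thus the lowest of each group, and the spread between replicates exceeded the difference between the groups. Taken by replicate number, the median change of the members was -0.10, -0.17, -0.05 and 0.03, with 72, 77, 63 and 37 of 88 members lower in the fasted library. The median log2 change of -0.08 was -0.04 without fasted replicate 4, and it was -0.03, -0.04 and -0.16 when ad libitum replicate 1, 2 or 4 was left out.

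**Figure D2:**
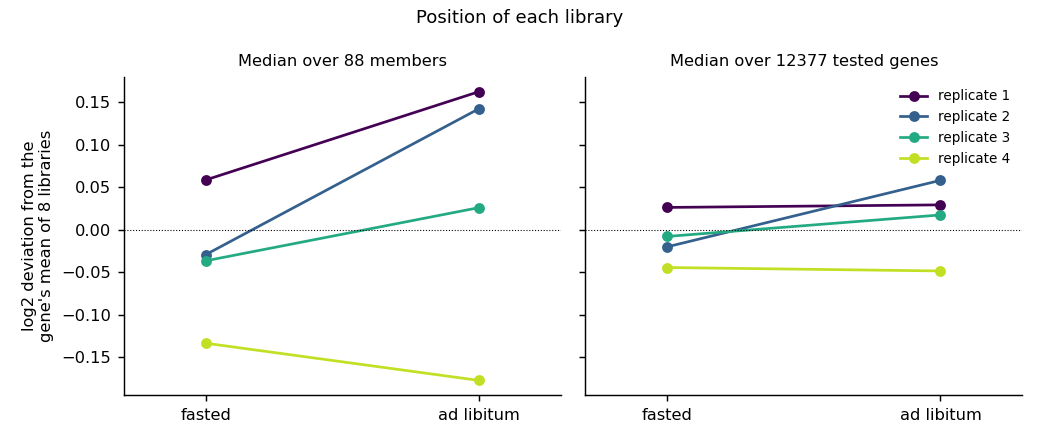
Median deviation from each gene's mean over 8 libraries (y axis, log2 of FPKM + 1) in the fasted libraries (left) and the ad libitum libraries (right), for the members and for all genes tested; lines join libraries with the same replicate number. Over the members, replicate 4 is the lowest library in both groups, at -0.13 when fasted and -0.18 when fed ad libitum, and its line runs the other way from those of replicates 1 to 3.

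The clearest fall was in Ndufaf2, a chaperone that binds a late assembly intermediate of complex I. Ndufaf2 had 24.1, 19.6, 21.3 and 19.3 FPKM in fasted cortex, against 31.7, 33.1, 29.3 and 28.2 FPKM in ad libitum cortex. All 4 fasted libraries were below all 4 ad libitum libraries. Its mean was 21.1 ± 2.19 FPKM in fasted and 30.6 ± 2.24 FPKM in ad libitum cortex (SD, n = 4 each), a log2 change of -0.52 (SE 0.076, limma adjusted p = 0.000917). The call held under all 19 alternatives, with adjusted p from 0.000154 to 0.00471. Ndufaf2 lies on the minus strand of chromosome 13 (GRCm38, 108002715 to 108158623), and 1955 of its 2978 annotated exon bases overlap B230220B15Rik on the opposite strand; whether the libraries keep strand is not given in the sources used here. The gene Ercc8, which starts next to it in the opposite orientation, had 3.49 ± 0.521 FPKM in fasted and 3.31 ± 0.552 FPKM in ad libitum cortex (log2 change 0.06, limma adjusted p = 0.71).

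Cycs encodes cytochrome c, the soluble carrier between complexes III and IV that also acts in apoptosis. Cycs had 40.2, 36.04, 40.7 and 37.6 FPKM in fasted cortex, against 52.6, 51.1, 49.2 and 42.8 FPKM in ad libitum cortex. The groups did not overlap, although the lowest ad libitum library, replicate 4, came close to the highest fasted one. Its mean was 38.6 ± 2.21 FPKM in fasted and 48.9 ± 4.32 FPKM in ad libitum cortex (SD, n = 4 each), a log2 change of -0.33 (SE 0.070, limma adjusted p = 0.00622). It was called under 18 of 19 alternatives, the exception being scaling to equal sums (adjusted p = 0.165). Cycs lies on the minus strand of chromosome 6 (50562563 to 50566538).

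Ndufb2, an accessory subunit of the membrane arm of complex I, was the third member with a call that held under all 19 alternatives (adjusted p 0.00843 to 0.0439). It had 25.2, 32.3, 28.6 and 27.1 FPKM in fasted cortex, against 43.5, 43.6, 33.0 and 33.2 FPKM in ad libitum cortex. The groups did not overlap, and ad libitum replicates 1 and 2 stood well above replicates 3 and 4. The means were 28.3 ± 3.02 and 38.3 ± 6.03 FPKM in fasted and ad libitum cortex (SD, n = 4 each), a log2 change of -0.42 (SE 0.11, limma adjusted p = 0.0148). Ndufb2 lies on the plus strand of chromosome 6 (39592574 to 39603382), where annotated exons overlap Braf, Gm16272 and Gm42420. Braf itself was higher in fasted cortex, at 17.6 ± 0.415 FPKM against 15.3 ± 0.473 FPKM (log2 change 0.19, limma adjusted p = 0.0128).

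The promoters of these 3 genes, which gave the smallest p-values among the members, are shown because nuclear respiratory genes are known targets of NRF1 and of factors that bind cAMP response elements. Each sequence runs 5′ to 3′ on the gene's own strand from 100 bases before to 30 bases after the RefSeq transcript start (RefSeq, GRCm38.p6), with matches to 4 searched motifs in capitals. The motifs were NRF1 (GCGCANGCG), ETS (CCGGAAG), CRE (TGACGTCA) and YY1 (AAGATGGC), on both strands. Ndufaf2 is at chr13:108158596-108158725, minus strand, Cycs at chr6:50566540-50566669, minus strand, and Ndufb2 at chr6:39592465-39592594, plus strand.
Ndufaf2: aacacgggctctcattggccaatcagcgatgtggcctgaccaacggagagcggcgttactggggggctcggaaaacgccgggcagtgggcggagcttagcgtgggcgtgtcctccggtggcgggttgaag
Cycs: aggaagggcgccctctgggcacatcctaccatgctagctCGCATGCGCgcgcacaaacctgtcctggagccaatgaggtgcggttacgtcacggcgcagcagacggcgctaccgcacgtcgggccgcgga
Ndufb2: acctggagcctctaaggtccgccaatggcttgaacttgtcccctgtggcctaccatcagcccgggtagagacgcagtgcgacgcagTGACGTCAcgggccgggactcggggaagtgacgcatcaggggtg
The capitals in Cycs mark an NRF1 match on the opposite strand at positions -61 to -53 from the transcript start, and a CRE match lies further upstream, at -169 to -162. In Ndufb2 they mark a CRE match at -14 to -7. The Ndufaf2 window of 300 bases held none of the 4 motifs. RefSeq promoters of 300 bases were at hand for 77 members. An NRF1 match was found in 23 of them (29.9%, against 6.25% of 32851 promoters), an ETS match in 17 (22.1%, against 8.86%), a YY1 match in 11 (14.3%, against 2.75%) and a CRE match in 5 (6.49%, against 1.79%). A member counted if any of its promoters matched, while the 32851 promoters were counted singly, with no filter on expression. The paired percentages are thus not in the same unit. Of the 7 called members with a promoter, 4 held an NRF1 match, 2 a CRE match, and 0 an ETS or YY1 match. A match describes the letters of the window and not binding.

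Of the 7 core subunits of complex I encoded in the nucleus, which carry the flavin and the iron-sulfur clusters, limma called 0 in either direction, with 0 at an unadjusted p under 0.05. Their median log2 change was 0.06, and 6 of 7 changes were positive. Ndufs3 had 50.9, 52.3, 49.5 and 47.8 FPKM in fasted cortex, against 47.2, 49.2, 46.2 and 43.5 FPKM in ad libitum cortex. The groups overlapped, and the log2 change was 0.11 (SE 0.054, adjusted p = 0.17, or 0.0501 with the replicate block). Ndufs3 has a near-identical copy in the annotation, so its reads could be split. Ndufs8 was the core subunit with a negative change (-0.15), at 36.6 ± 4.89 FPKM in fasted and 40.8 ± 6.41 FPKM in ad libitum cortex, and was called lower with the block (limma adjusted p = 0.0142) but not without it (0.369). With the block and the GC and length offsets, limma called Ndufs1, Ndufs3 and Ndufv1 higher and Ndufs8 lower.

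The 29 accessory subunits of complex I, which surround the core, had a median log2 change of -0.10. Ndufb2, Ndufa1 and Ndufb10 fell and 0 rose, with 0 higher at an unadjusted p under 0.05. The lower share was 10.3%, against 16.3% of all genes tested. Ndufa1, an X-linked subunit needed to assemble the membrane arm, had 57.4, 54.2, 57.0 and 46.1 FPKM in fasted cortex, against 63.5, 66.5, 67.3 and 57.0 FPKM in ad libitum cortex. Replicate 4 was the lowest library of each group, and the ad libitum one fell within the range of the fasted libraries. The log2 change was -0.24 (SE 0.078, limma adjusted p = 0.0419, or 0.00186 with the block). Ndufb10, another membrane-arm subunit, had 114, 95.7, 100.5 and 105 FPKM in fasted cortex, against 136, 131, 114 and 111 FPKM in ad libitum cortex, with overlap (log2 change -0.24, SE 0.080, limma adjusted p = 0.0442, or 0.00935 with the block). Both calls were lost under 9 of 19 alternatives, among them leaving out any library other than fasted replicate 1 and ad libitum replicate 4. With the block, Ndufa3 and Ndufa12 were lower as well. Ndufa12, a paralog of Ndufaf2 that is found in the finished enzyme, had 127 ± 9.14 FPKM in fasted and 140 ± 13.6 FPKM in ad libitum cortex (SD, n = 4 each; log2 change -0.14, limma adjusted p = 0.235, or 0.0318 with the block), and has a near-identical copy in the annotation.

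The 7 Ndufaf genes, assembly factors of complex I, included 3 that fell, Ndufaf2, Ndufaf5 and Ndufaf4, and 0 that rose (0 higher at an unadjusted p under 0.05). The lower share of the 7 genes was 42.9%, against 16.3% of all genes tested. The median log2 change of the Ndufaf genes was -0.19. It was negative for each replicate number, at -0.11, -0.25, -0.27 and -0.13, while that of the complex I core subunits was 0.03, -0.09, 0.08 and 0.13. The summed level was 52.5 to 63.6 FPKM in the fasted libraries and 64.1 to 74.9 FPKM in the ad libitum libraries, without overlap. Ndufaf2 had the highest level of the 7, and without it the summed levels of the others overlapped between the groups. Ndufaf5, which modifies the core subunit Ndufs7 during early assembly, had 4.04, 4.10, 3.82 and 4.01 FPKM in fasted cortex, against 5.08, 5.06, 4.97 and 4.38 FPKM in ad libitum cortex. The fasted libraries were close together and below every ad libitum library (log2 change -0.23, SE 0.060, limma adjusted p = 0.0162). Its call was lost without ad libitum replicate 3 and with scaling to equal sums. Ndufaf4, which acts with Ndufaf3 on an early intermediate, had 5.36, 4.52, 5.27 and 4.96 FPKM in fasted cortex, against 5.88, 6.08, 6.07 and 5.53 FPKM in ad libitum cortex. The groups did not overlap (log2 change -0.19, SE 0.062, limma adjusted p = 0.0408), and 9 of 19 alternatives kept the call. Leaving out any library other than fasted replicate 1 and ad libitum replicate 4 lost it. Ndufaf1, a factor for the membrane arm, had 7.59 ± 1.27 FPKM in fasted and 9.27 ± 0.677 FPKM in ad libitum cortex (limma adjusted p = 0.0618, or 0.0113 with the block), and was called under 8 of 19 alternatives.

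**Figure D3:**
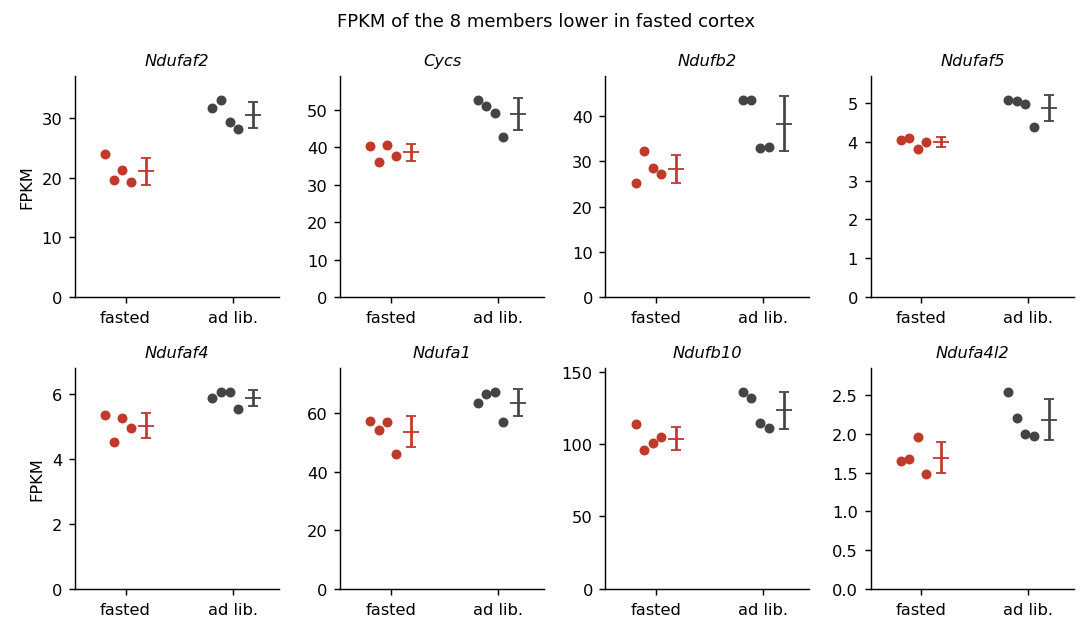
FPKM (y axis, from 0) of the 8 members called lower, in each fasted library (left, red) and ad libitum library (right, grey), ordered within a group by replicate number; bars give the mean ± SD of 4 libraries. The groups do not overlap in Ndufaf2, Cycs, Ndufb2, Ndufaf5, Ndufaf4 and Ndufa4l2, and they overlap in Ndufa1 and Ndufb10.

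Assembly factors outside the Nduf symbols were read beside them. The list of further complex I factors and the pooling of the lists were not fixed in advance. Of 7 further factors of complex I, 3 fell (42.9%) and 0 rose. Of 32 factors of complexes II to V, 11 fell (34.4%) and 0 rose. Together with Ndufaf this gave 17 lower of 46 assembly factors (37.0%, against 16.3% of all genes tested) and 0 higher (1 higher at an unadjusted p under 0.05), with a median log2 change of -0.15. The 17 include Coa4, which passed the filter through the ad libitum libraries alone; without it the count was 16 of 45 (35.6%). The members outside these lists of assembly factors, Atp5sl among them, had 5 lower of 81 tested (6.17%). Whether the lists differ from each other was not tested. With the block, 19 of 46 factors were lower (against 22.1% of all genes tested), Ndufaf1 and Cox17 in addition. With it 1, Atpaf1, was higher (against 14.3%). Without ad libitum replicate 1 the count of lower factors was 10 (against 12.8% of all genes tested). Without ad libitum replicate 3 it was 9 (against 11.1%). The factors were also lower in level than the subunits, with a median of 7.60 FPKM for the 46 factors and 70.6 FPKM for the other 81 members.

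Among these factors, Timmdc1, which helps to assemble the membrane arm of complex I, had 3.08, 2.53, 2.71 and 2.43 FPKM in fasted cortex, against 5.04, 4.80, 4.37 and 4.46 FPKM in ad libitum cortex. Every fasted library was well below every ad libitum library (log2 change -0.62, SE 0.071, limma adjusted p = 0.000272). Bcs1l, the ATPase that inserts the Rieske iron-sulfur protein into complex III, had 5.84, 3.95, 4.60 and 4.71 FPKM in fasted cortex, against 8.49, 7.82, 8.06 and 7.32 FPKM in ad libitum cortex. Again the groups did not overlap (log2 change -0.64, SE 0.090, limma adjusted p = 0.000751), and both calls held under all 19 alternatives. Nubpl, which delivers iron-sulfur clusters to complex I, had 1.21 ± 0.210 FPKM in fasted and 1.70 ± 0.308 FPKM in ad libitum cortex (SD, n = 4 each; log2 change -0.29, limma adjusted p = 0.0473), a call lost on leaving out any library other than fasted replicate 3 and ad libitum replicate 2 (adjusted p up to 0.135). Coa4, a factor of complex IV, had 0.800 ± 0.139 FPKM in fasted and 1.98 ± 0.320 FPKM in ad libitum cortex (log2 change -0.72, limma adjusted p = 0.000381). Its fasted libraries were all under 1 FPKM, so that it had to differ in order to be tested, and its change is given as a description.

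The remaining lower factors were Acad9 of complex I, Uqcc2 and Lyrm7 of complex III, and Coa3, Coa5, Coa6, Cox14, Cox16, Cox20 and Taco1 of complex IV. Lyrm7, Acad9 and Uqcc2 kept their calls under 7, 10 and 11 of 19 alternatives (limma adjusted p up to 0.467, 0.71 and 0.132). Coa3, Coa5, Cox14 and Taco1 kept theirs under 17, 18, 18 and 16. Coa6, which takes part in copper delivery to complex IV, had 4.10 ± 0.367 FPKM in fasted and 6.37 ± 0.693 FPKM in ad libitum cortex (log2 change -0.53, SE 0.078, limma adjusted p = 0.000972). Cox16 and Cox20, which act on the mitochondrially encoded subunit COX2, changed by -0.53 and -0.52 (limma adjusted p = 0.00157 and 0.00412). For these 3 genes the groups did not overlap and the calls held under all 19 alternatives. These genes were named after their values were seen.

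**Figure D4:**
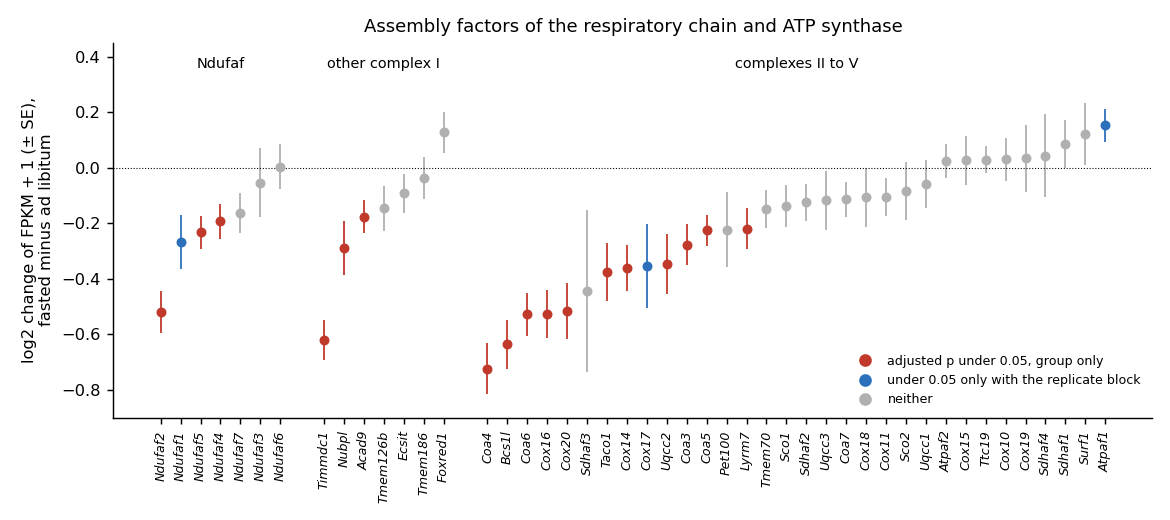
Log2 change of FPKM + 1 ± SE (y axis, fasted minus ad libitum) of the 46 assembly factors, in 3 lists and ordered by change within each; colours show the adjusted p without and with the replicate block. The 17 factors called without the block all lie below 0, among them Bcs1l (-0.64) and Timmdc1 (-0.62); the lowest point, Coa4, passed the filter through the ad libitum libraries alone.

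Complex II, which is also an enzyme of the citric acid cycle and is encoded wholly in the nucleus, had 0 of 4 subunits called by limma, with 1 lower at an unadjusted p under 0.05. Its subunits differed in sign. Sdhb, the iron-sulfur subunit, had 60.5, 60.3, 54.9 and 51.8 FPKM in fasted cortex, against 55.9, 53.9, 49.2 and 41.1 FPKM in ad libitum cortex. In each replicate number the fasted library was the higher, although the groups overlapped (log2 change 0.19, SE 0.092, limma adjusted p = 0.153, or 0.0094 with the block). Sdhc, a membrane anchor, had 28.02, 26.5, 24.5 and 23.7 FPKM in fasted cortex, against 29.7, 33.5, 30.5 and 25.3 FPKM in ad libitum cortex. Here the fasted library was the lower in each replicate number (log2 change -0.20, SE 0.082, limma adjusted p = 0.0932, or 0.0149 with the block). The flavoprotein Sdha had 99.8 ± 3.71 FPKM in fasted and 97.8 ± 3.52 FPKM in ad libitum cortex (SD, n = 4 each; adjusted p = 0.708). The other anchor, Sdhd, had 33.3 ± 3.98 and 33.9 ± 4.89 FPKM in fasted and ad libitum cortex (adjusted p = 0.899).

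Complex III had a median log2 change of -0.09 over its 9 genes, with 0 called by limma and 1 lower at an unadjusted p under 0.05. That gene was Uqcrb, a ubiquinone-binding subunit, with 173, 154, 176 and 166 FPKM in fasted cortex, against 183, 188, 194 and 176 FPKM in ad libitum cortex. The groups did not overlap, by a narrow margin (log2 change -0.15, SE 0.061, limma adjusted p = 0.0914, or 0.0258 with the block), and Uqcrb has near-identical copies in the annotation. Uqcrh, the hinge protein and the complex III gene with the highest level, had 185 ± 18.9 FPKM in fasted and 209 ± 21.3 FPKM in ad libitum cortex (SD, n = 4 each; adjusted p = 0.176). Cyc1, the haem subunit that hands electrons to cytochrome c, had 51.4 ± 3.37 FPKM in fasted and 55.0 ± 5.95 FPKM in ad libitum cortex, a log2 change of -0.09 (SE 0.080, limma adjusted p = 0.43).

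Complex IV had the highest levels of the complexes, with a median of 229 FPKM over its 14 tested genes, against 111 FPKM in complex V, 86.6 FPKM in complex III, 55.5 and 39.7 FPKM in the accessory and core subunits of complex I, and 43.5 FPKM in complex II. Its median log2 change was -0.05. In tissues, several of its subunits exist as isoforms from separate genes. The broadly expressed ones made up nearly all of the signal here. Cox4i1 had 313 ± 19.9 FPKM in fasted and 325 ± 38.4 FPKM in ad libitum cortex (SD, n = 4 each), while Cox4i2, known as the lung and hypoxia isoform, had 0.679 ± 0.289 and 0.988 ± 0.373 FPKM. Cox6a1 had 371 ± 23.0 FPKM in fasted and 370.4 ± 46.4 FPKM in ad libitum cortex, against 10.3 ± 1.40 and 10.6 ± 1.49 FPKM for the heart and muscle isoform Cox6a2. Cox8a, the highest member of all, had 578 ± 43.4 FPKM in fasted and 600.4 ± 75.6 FPKM in ad libitum cortex, and the muscle isoform Cox8b was listed at 0 in every library.

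The Cox7a paralogs followed the same order. Cox7a2l, which takes part in joining complexes III and IV into supercomplexes, had 79.1 ± 6.28 FPKM in fasted and 83.9 ± 7.69 FPKM in ad libitum cortex (SD, n = 4 each). Cox7a2 had 57.7 ± 3.16 and 60.2 ± 7.0 FPKM in fasted and ad libitum cortex. The muscle isoform Cox7a1 had 0.784, 0.760, 0.651 and 0.697 FPKM in fasted cortex, against 1.46, 0.785, 0.733 and 2.1 FPKM in ad libitum cortex, and was not tested. None of Cox4i1, Cox6a1, Cox6a2, Cox7a2, Cox7a2l and Cox8a passed the test, with limma adjusted p of 0.467 to 0.956. Cox6b2, Cox7b2 and Cox8c averaged under 1 FPKM in each group and were not tested.

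The complex IV gene that fell was Ndufa4l2, the low paralog of Ndufa4 that is known to be induced by hypoxia. Ndufa4l2 had 1.66, 1.68, 1.96 and 1.48 FPKM in fasted cortex, against 2.54, 2.20, 2.0 and 1.97 FPKM in ad libitum cortex. The highest fasted library lay just below the lowest ad libitum library (log2 change -0.24, SE 0.080, limma adjusted p = 0.0468), and 7 of 19 alternatives kept the call. It held on leaving out fasted replicate 3 or ad libitum replicate 4 and was lost on leaving out any other library. Ndufa4 itself, first described as a complex I subunit and now known as one of complex IV, had 264 ± 23.3 FPKM in fasted and 256 ± 32.2 FPKM in ad libitum cortex (SD, n = 4 each; log2 change 0.05, limma adjusted p = 0.755). With the block, Cox6b1 and Cox7b were lower too.

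Complex V had 0 of 15 subunits called by limma, with 1 lower and 1 higher at an unadjusted p under 0.05, and a median log2 change of -0.11. Atp5a1, the alpha subunit of the catalytic F1 head, had 285, 271, 268 and 250.2 FPKM in fasted cortex, against 248, 259, 231 and 225 FPKM in ad libitum cortex. The fasted library was the higher in every replicate number (log2 change 0.16, SE 0.065, limma adjusted p = 0.0995, or 0.0151 with the block). Atp5j2, a small subunit of the membrane part, had 101, 86.8, 104 and 80.0 FPKM in fasted cortex, against 136, 130, 115 and 91.6 FPKM in ad libitum cortex. It was lower in every replicate number (log2 change -0.33, SE 0.12, limma adjusted p = 0.064, or 0.00611 with the block). Atp5h, Atp5l and Atp5o, which are parts of the stalk or the membrane portion, were also lower with the block, and each has a near-identical copy in the annotation. Atp5b, the catalytic beta subunit, had 377 ± 10.6 FPKM in fasted and 379 ± 24.6 FPKM in ad libitum cortex (SD, n = 4 each; adjusted p = 0.967).

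Atp5g1, Atp5g2 and Atp5g3 encode the same mature c subunit of the rotor ring from separate genes. Atp5g3 had the highest level, 109 ± 6.04 FPKM in fasted and 103 ± 11.5 FPKM in ad libitum cortex (SD, n = 4 each). Atp5g2 followed, with 77.8 ± 9.80 and 79.2 ± 9.68 FPKM in fasted and ad libitum cortex. Atp5g1 was the lowest, with 62.9 ± 4.58 and 63.3 ± 8.39 FPKM, and the order was the same in both groups. None of them passed the test (limma adjusted p of 0.51, 0.884 and 0.992 for Atp5g3, Atp5g2 and Atp5g1), and Atp5g1 and Atp5g2 have near-identical copies in the annotation. Atp5s and Atp5sl, which are not subunits of the enzyme core, changed by -0.11 and -0.10 (limma adjusted p = 0.378 and 0.414). Atp5sl is annotated as Dmac2, a symbol that stands for a distal membrane-arm assembly component of complex I. It was not counted with the assembly factors here.

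The regulators known to act on these genes were read as a list of 13, of which 11 passed the filter. Ppargc1b, a coactivator of mitochondrial biogenesis, rose to 3.49 ± 0.180 FPKM in fasted cortex, against 2.67 ± 0.591 FPKM in ad libitum cortex (SD, n = 4 each; log2 change 0.30, SE 0.10, limma adjusted p = 0.0497). The groups overlapped and 7 of 19 alternatives kept the call, which was lost on leaving out any library other than ad libitum replicate 4 (adjusted p 0.07 to 0.109). Its paralog Ppargc1a had 9.81 ± 1.0 FPKM in fasted and 8.87 ± 0.650 FPKM in ad libitum cortex (log2 change 0.13, limma adjusted p = 0.235). Nrf1 had 3.79 ± 0.234 and 3.94 ± 0.210 FPKM in fasted and ad libitum cortex (adjusted p = 0.631), and the nuclear receptor Esrra had 8.96 ± 0.581 and 8.85 ± 0.926 FPKM (adjusted p = 0.882). With the block, Gabpa, an ETS factor, was lower (limma adjusted p = 0.0446, against 0.0603 without it).

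For the expression of mitochondrial DNA, 2 of 11 tested genes fell (18.2%, against 16.3% of all genes tested) and 0 rose (0 at an unadjusted p under 0.05). Tfb1m, which methylates mitochondrial ribosomal RNA, had 1.78 ± 0.269 FPKM in fasted and 2.60 ± 0.123 FPKM in ad libitum cortex (SD, n = 4 each; log2 change -0.38, SE 0.077, limma adjusted p = 0.00492), without overlap. Peo1, the mitochondrial helicase Twinkle, had 2.78 ± 0.282 and 3.58 ± 0.298 FPKM in fasted and ad libitum cortex (log2 change -0.28, limma adjusted p = 0.019, or 0.0629 without ad libitum replicate 3). Tfam, which packages mitochondrial DNA, had 4.99 ± 0.345 FPKM in fasted and 4.69 ± 0.249 FPKM in ad libitum cortex (adjusted p = 0.417).

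Genes on either side of the chain showed single changes. Of 7 genes that feed electrons to ubiquinone outside complexes I and II, Gpd2 and Etfa fell (28.6%, against 16.3% of all genes tested). Gpd2, the mitochondrial glycerol phosphate dehydrogenase, had 17.6, 17.0, 16.9 and 15.3 FPKM in fasted cortex, against 19.1, 21.8, 20.1 and 20.3 FPKM in ad libitum cortex. The groups did not overlap (log2 change -0.27, SE 0.058, limma adjusted p = 0.0071). Etfa, a subunit of the electron transfer flavoprotein, changed by -0.16 (limma adjusted p = 0.0427), a call lost on leaving out any fasted library or ad libitum replicate 1 or 2 (adjusted p 0.0647 to 0.115). With the block, Etfb, the other subunit of that flavoprotein, was lower and Prodh, proline dehydrogenase, was higher. Of 12 genes of ubiquinone synthesis, Coq2 fell (log2 change -0.24, limma adjusted p = 0.0151) and Adck3 rose, at 6.85 ± 0.304 FPKM in fasted and 5.15 ± 0.531 FPKM in ad libitum cortex (log2 change 0.36, limma adjusted p = 0.00406).

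Of 9 carriers and inhibitors of the inner membrane, Ucp2 rose and 0 fell, with 2 lower at an unadjusted p under 0.05. Over all genes tested, 9.56% were called higher and 16.3% lower. Ucp2, an uncoupling protein, had 16.6, 11.3, 11.9 and 13.0 FPKM in fasted cortex, against 8.79, 8.06, 7.53 and 6.79 FPKM in ad libitum cortex. Every fasted library was above every ad libitum library (log2 change 0.68, SE 0.11, limma adjusted p = 0.00136), and the call held under all 19 alternatives. Slc25a4, the main adenine nucleotide carrier of muscle and brain, had 286 ± 10.3 FPKM in fasted and 284 ± 24.9 FPKM in ad libitum cortex (SD, n = 4 each; adjusted p = 0.896). Atpif1, which inhibits ATP hydrolysis by complex V, had 48.9 ± 3.72 and 55.9 ± 5.92 FPKM in fasted and ad libitum cortex (log2 change -0.19, limma adjusted p = 0.116, or 0.00714 with the block). Ckmt1, the mitochondrial creatine kinase, was also lower with the block.

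Transcript length differed between the members and the rest. The members had a median transcript of 645 bases, against 1878 bases over all genes tested. For the 37 members under 600 bases the median log2 change was -0.11, against -0.05 for all 1146 genes of that length, and with GC and length offsets it was -0.07, against -0.02. For the 25 members of 600 to 800 bases it was -0.05, as it was for all 1534 genes of that length. For the 16 members of 800 to 1200 bases it was -0.09, against -0.04 for all 1544 genes of that length (-0.03 against 0.01 with the offsets), and for the 8 members of 1200 to 2000 bases it was -0.03, against -0.03 for 2209 genes. The core subunits of complex I had a median transcript of 758 bases and the accessory ones 552 bases.

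Markers of the cell types of cortex moved beside these genes. Over all genes tested, limma called 16.3% lower and 9.56% higher, or 22.1% and 14.3% with the block. In fasted cortex limma called 4 of 9 markers of excitatory neurons lower, 3 of 6 of astrocytes, 2 of 4 of oligodendrocyte precursors, 4 of 7 of microglia and 1 of 5 of endothelium, and called 1 of 6 of mature oligodendrocytes higher. It called 0 of 7 of inhibitory neurons (0 lower and 1 higher at an unadjusted p under 0.05), 0 of 3 tested of blood and 0 of 1 tested of choroid plexus and ependyma (0 in either direction at that p). With the block, 5 of 7 markers of microglia and 1 of 6 of mature oligodendrocytes were lower, and 1 of astrocytes, 1 of inhibitory neurons and 2 of mature oligodendrocytes were higher, the other counts being as without it. The summed marker levels of microglia were 74.0 to 84.0 FPKM in fasted and 85.1 to 115 FPKM in ad libitum libraries, and those of oligodendrocyte precursors were 36.5 to 41.8 and 44.2 to 50.2 FPKM in fasted and ad libitum libraries, without overlap. Those of excitatory neurons were 1733 to 2004 FPKM in fasted and 1697 to 2125 FPKM in ad libitum libraries, those of inhibitory neurons 355 to 449 and 345 to 476 FPKM, those of astrocytes 473 to 528 and 453 to 525 FPKM, and those of mature oligodendrocytes 1567 to 1864 and 1447 to 1800.2 FPKM. Those of endothelium were 26.2 to 32.3 FPKM in fasted and 30.3 to 35.7 FPKM in ad libitum libraries, those of choroid plexus and ependyma 2.3 to 4.25 and 1.72 to 2.72 FPKM, and those of blood 126 to 269 and 144 to 253 FPKM. No marker was at 0 in every library, and the part of these shifts in the changes of the members was not tested.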

How the data were processed

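The samples were 8 RNA-seq libraries of mouse occipital cortex, 4 fasted and 4 fed ad libitum, grouped by their treatment label. The deposited values were FPKM, in 1 table of 24883 rows. Per the submitters' processing notes, TopHat and the mm10 build were used; for the quantifying program, the annotation, strandedness and any scaling, the answer is: not given in the sources used here. The row with the highest mean was used where a symbol repeated, which was the case for 0 members.

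The tests used log2(FPKM + 1) as input to limma 3.58.1 (R 4.3.3), a scale that understates changes of low genes. Genes needed at least 1 FPKM in at least 4 libraries. Empirical Bayes moderation used a trend and robust estimation, with group as the only term and Benjamini-Hochberg adjustment over all genes tested. Depth was estimated from FPKM times length in genes with 1 transcript, at the densest low value within 0.02 to 0.2. Coordinates, lengths and GC content came from GENCODE M21 (GRCm38, the mm10 assembly), in which 23948 symbols and all 94 members matched, and promoters came from RefSeq. A near-identical copy was another annotated transcript at 95% identity or more over at least 50% of the member's transcript, and 13 members had one. Tables and figures were made with Python 3.11.15, pandas 2.3.3 and matplotlib 3.10.9, and the test was tried on simulated data.

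Replicate numbers are shared by the groups. Deviations of same-numbered libraries from their group means correlated across genes at 0.574, 0.496, 0.382 and 0.523. The numbers were taken to pair the libraries in the fits with the block and in the changes by replicate number. The main fit, with group as the only term, did not use this pairing. The labels themselves state no pairing; it rests on these correlations.

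The members and lists were chosen with earlier results of these data known. Named genes were, in each group of members, up to 4 called ones with the smallest p (otherwise the 2 with the smallest p), the one with the highest level, and a fixed set of isoforms, complex II subunits and regulators; other lists gave up to 2. Genes named for the replicate block, the GC and length offsets, or as remaining assembly factors were chosen after their values were seen. Some values that this rule would name are not reported here.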

Additional observations from a re-analysis of the deposited data

Results flagged for a closer look

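In 5 of 110 groups of 4 libraries searched, 1 library lay far from the other 3 by Dixon's test, and chance alone flags about 1 in 20. Among the members, Ndufaf5 had 4.38 FPKM in ad libitum replicate 4, against 4.97 to 5.08 FPKM in the other ad libitum libraries, and its call held without that library. Atp5s had 4.25 FPKM in ad libitum replicate 4, against 5.16 to 5.34 FPKM in the other ad libitum libraries. Cox4i2 had 1.54 FPKM in ad libitum replicate 2, against 0.756 to 0.855 FPKM in the others. Outside the members, Coq2 had 17.4 FPKM in fasted replicate 1, against 16.5 FPKM in each of the other fasted libraries, and Etfa had 9.09 FPKM in fasted replicate 2, against 9.68 to 9.80 FPKM in the others.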

How the results depend on the processing

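The number of members called lower was 8 in the fit as reported, where 2015 of 12377 genes were lower. It was 4 with no filter on low values (1941 of 19289 genes lower) and 2 with scaling to equal sums (529 of 12352). It was 20 with the replicate block (2733 of 12377) and 15 with the block and GC and length offsets (2475 of 12377). With both libraries numbered 4 left out it was 19 (2262 of 12223). Leaving out each library in turn gave 3 to 27 members, with the shares over all genes given above. The number of members called higher was 0 as reported, where 1183 of 12377 genes were higher. It was 4 with median-ratio scaling (1758 of 12365 genes higher), 2 with equal sums (1584 of 12352) and 4 with quantile scaling (1792 of 12370). It was 5 with GC and length offsets (1911 of 12377), 2 with the block (1773 of 12377) and 12 with the block and offsets (2499 of 12377). The number of assembly factors called lower was 17 of 46 as reported and 7 of 46 with equal sums, where 529 of 12352 genes were lower. It was 9 to 18 on leaving out each library, against 11.1% to 20.5% of all genes tested. As reported, 0 factors were called higher. With median-ratio scaling, quantile scaling or the block 1 was called higher, and with the offsets 2, with or without the block. Leaving out each library gave 0 to 1 higher factors, while 833 to 1193 of all genes tested were higher. The median change of the members, -0.08, was -0.16 to -0.03 on leaving out each library, -0.04 with GC and length offsets or quantile scaling, -0.05 with median-ratio scaling, and 0.04 with equal sums, a scaling that raised the median of all genes by 0.11; relative to all genes the members were then 0.04 against 0.08. The cause of these shifts was not tested, beyond the smaller number of samples in fits that leave libraries out. Over 52 named genes, 849 of the gene-level results kept their side of the threshold, 85 lost a call, 49 gained one, and 0 changed sign with a call. The replicate block changed no call of a member or listed gene beyond those given in the report. Sampling error at the estimated depth limits genes near 1 FPKM.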
